A study of Homo sapiens with 9 samples.

Results

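This account follows 36 human genes of glucose breakdown and of the response to low oxygen in embryonic stem cells left to differentiate for 14 days. The genes were chosen by name for what they encode: 15 glycolytic enzymes, 2 lactate dehydrogenase subunits, 4 glucose or lactate transporters, 4 pyruvate dehydrogenase kinases and 11 hypoxia targets. Each gene was read from the probe set that the array's annotation names for that gene alone, and where there were several, from the one with the highest mean over all arrays. By that rule 33 of the 36 were measured, among 19775 genes in all. The lactate transporters SLC16A1 and SLC16A3 and the carbonic anhydrase CA9 have no such probe set in the annotation used and were not analysed here. Of the 33, 10 had a single probe set and 23 had several.

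RNA came from 3 established human embryonic stem cell (hESC) lines, Shef3, H14 and Shef1, and was read on 9 Affymetrix 3' expression arrays, 1 for each line in each of 3 groups. The hESC group is day 0: undifferentiated cells, grown on inactivated mouse embryonic fibroblast feeders in knockout serum replacement medium that contained 4 ng/ml basic FGF. The DFNB group is day 14: dissociated cells, plated on laminin without feeders and kept in DFNB, a serum-free medium of DMEM with high glucose and F12 plus the N2 and B27 supplements. The FGF3+10 group is day 14 as well, in the same medium to which FGF3 and FGF10 had been added, each at 50 ng/ml. The study's title places this culture on the way to otic progenitors, the cells that form the inner ear. The day 0 and day 14 groups thus differ in medium, feeders, substrate, dissociation and time, and these cannot be told apart. Each line is 1 genetic background and gave 1 array per group, so the replicates of a group are the 3 lines and the spread includes their differences. In RNA from whole cultures, fewer cells of a type and less RNA per cell cannot be told apart.

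Glycolysis splits glucose into pyruvate in the cytosol. Lactate dehydrogenase turns pyruvate into lactate, while the pyruvate dehydrogenase complex sends it to the mitochondria, and the PDK kinases switch that complex off. When oxygen is low, hypoxia-inducible factors (HIF) escape degradation and switch on most of these genes together with regulators of vessel growth, mitochondrial removal and collagen folding. Pluripotent stem cells are known to rely heavily on glycolysis.

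Levels are the deposited log values, taken here as log2, and a difference of 1 unit is called a log2 difference of 1. No source used here states the base of the logarithm, so differences are given as log2 units and not as folds. A level is compared only between arrays for the same probe set, since levels of different probe sets do not measure relative amounts of RNA. Every array had the same median of 3.20 over its probe sets, but the upper quartile ran from 6.02 to 6.46, lowest in the 3 Shef1 arrays (6.02 to 6.09). Group differences were tested with limma over the 19775 genes together. A gene counts as called where its p, adjusted by the Benjamini-Hochberg method over those genes, lay below 0.05. Differences are followed by their standard error (SE).

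On the deposited scale most of the glycolytic genes stood lower at day 14 than at day 0 in Shef3 and H14, and closer to their day 0 level in Shef1. The gap between the lines shrank when the arrays were given one distribution. No member passed the test in any comparison. In DFNB against hESC, where 0.202% of all genes were called, the lowest adjusted p among the 33 members (limma) was 0.187, for ADM, and 5 members had an unadjusted p below 0.05. In FGF3+10 against hESC, where 0.177% of all genes were called, the lowest was 0.203, for VEGFA, and 6 members had an unadjusted p below 0.05. Of all 19775 genes, 3125 had such a p in DFNB against hESC and 2370 in FGF3+10 against hESC. Those comparisons share the hESC arrays. Directions that follow are therefore a description of 9 arrays, not calls.

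Counted by direction, 25 of 33 members had a lower mean in DFNB than in hESC, against 60.5% of all genes and 80.5% of the 776 genes with a mean level of at least 10. Their median log2 difference was -0.54 against -0.19 for all genes. The median over the members was -0.82 (Shef3), -0.35 (H14) and -0.18 (Shef1). In FGF3+10 27 of 33 were lower, against 62.4% of all genes and 86.0% of the bright ones, with a median of -0.39 against -0.19 for all genes. The size of these medians depends on how the arrays are scaled. After quantile normalisation, which gives every array the same distribution, they were -0.29 for DFNB and -0.16 for FGF3+10, with 23 and 20 members lower, and the medians of all genes were -0.08 and -0.06. By line the member medians for DFNB then came to -0.21 in Shef3, -0.28 for H14 and -0.20 for Shef1, so the order of the lines seen on the deposited scale was gone. For FGF3+10 the order stayed but the gaps shrank. The medians were -0.97 (Shef3), -0.23 (H14) and 0.08 (Shef1) as deposited, and -0.28, -0.02 and -0.01 after quantile normalisation. The brightest genes moved with the scaling as well: the 776 had a median of -0.29 in DFNB and -0.30 in FGF3+10 as deposited, and -0.02 and -0.01 after quantile normalisation.

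**Figure D1:**
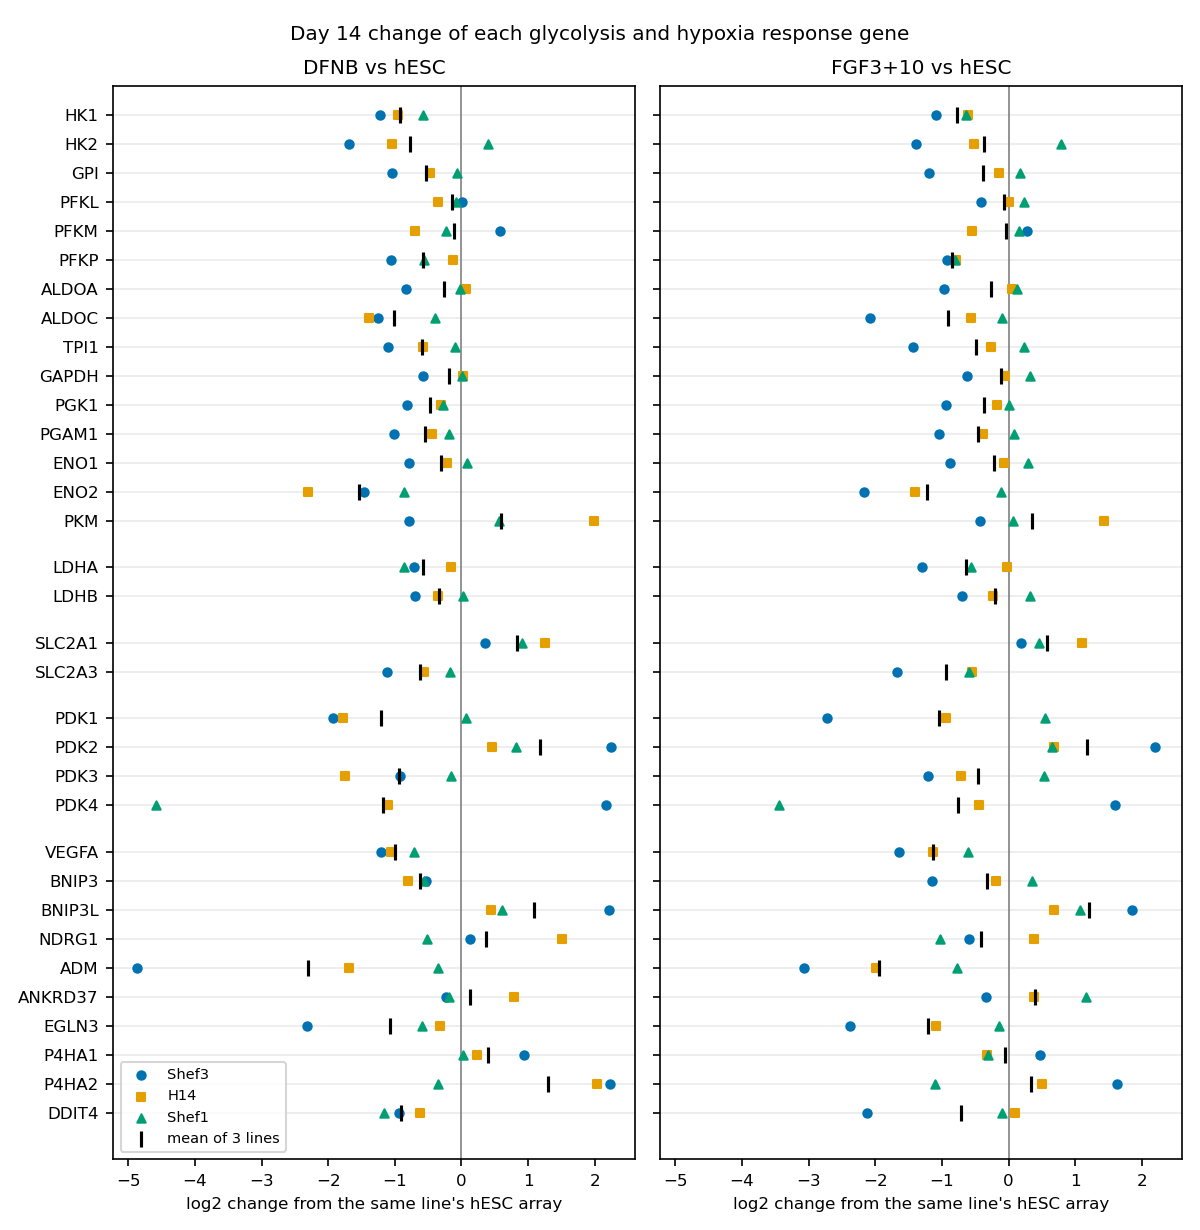
Difference between each day 14 array and the day 0 array of the same line for the 33 measured genes, ordered by role, in log2 units. Left, DFNB minus hESC; right, FGF3+10 minus hESC. Coloured marks are the 3 lines and the black bar is their mean. Most enzymes lie left of 0 in Shef3 on the deposited scale, ADM in Shef3 and PDK4 in Shef1 lie farthest left, and SLC2A1, PDK2 and BNIP3L lie right of 0 in every line.

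Every Shef3 difference is taken from 1 day 0 array, which stood apart in some measures. Its upper quartile of 6.46 was the highest of the 9. The control probe sets at the 3' end of GAPDH exceeded those at the 5' end by 0.529 on it, against 0.141 to 0.309 on the other arrays. For ACTB the excess was 0.522 on it and 0.241 and 0.0824 on the day 14 arrays of Shef3, while the Shef1 arrays ran from 0.538 to 0.688. A larger excess is a sign of shorter RNA or cDNA, and its part in the Shef3 differences was not tested.

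In DFNB, 16 of 33 members were lower than day 0 in all 3 lines, against 25.9% of all genes. They were HK1, GPI, PFKP, ALDOC, TPI1, PGK1, PGAM1, ENO2, LDHA, SLC2A3, PDK3, VEGFA, BNIP3, ADM, EGLN3 and DDIT4. Among the 776 brightest genes the same count was 323. Another 4 members, SLC2A1, PDK2, BNIP3L and P4HA1, were higher in all 3 lines, against 15.9% of all genes. In FGF3+10, 9 members were lower in every line, against 24.6% of all genes, namely HK1, PFKP, ALDOC, ENO2, LDHA, SLC2A3, VEGFA, ADM and EGLN3. SLC2A1, PDK2 and BNIP3L were higher in every line, 3 of 33 against 13.3% of all genes. After quantile normalisation the counts were 15 lower and 4 higher in DFNB, and 9 lower and 4 higher in FGF3+10.

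HIF binds a short core of 5 bases in DNA, ACGTG or GCGTG, and several promoters of these genes are textbook sites. A search of the promoters listed by RefSeq on GRCh38.p14 (250 bases before to 50 after the start of transcription, both strands, so that CACGT and CACGC count as well) found ACGTG in 21.41% and GCGTG in 36.54% of 35116 promoters, and at least 1 of the pair in 48.45%. Of 58 promoters listed for the members, 24 held ACGTG, 22 held GCGTG and 36 held either. Of the 33 measured members 29 had an entry, 25 of them with a match to either core in at least 1 promoter and 18 with ACGTG in at least 1. Counted the same way, 52.44% of 27305 genes had a match to either and 24.87% had ACGTG. Members had more starts listed, 1.793 per gene on average against 1.286, which gives them more windows to match in. A match is a description of the sequence and not a site of binding.

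The promoters of the 5 members with an entry whose day 14 levels differed most from day 0 in absolute mean are shown, because they place genes that stood lower beside 1 that stood higher. Capitals mark the core on either strand, and where a gene has several starts the promoter with most matches is shown. The ADM promoter (chr11:10304823-10305122, plus strand) held 1 GCGTG.

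ADM: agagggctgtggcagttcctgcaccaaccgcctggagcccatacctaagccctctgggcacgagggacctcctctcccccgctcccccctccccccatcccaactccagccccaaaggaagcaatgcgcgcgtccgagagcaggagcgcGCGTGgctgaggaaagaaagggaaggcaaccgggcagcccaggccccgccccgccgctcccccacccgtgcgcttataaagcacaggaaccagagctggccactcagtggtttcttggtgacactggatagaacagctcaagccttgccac

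The ENO2 promoter (chr12:6914330-6914629, plus strand) held 1 ACGTG.

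ENO2: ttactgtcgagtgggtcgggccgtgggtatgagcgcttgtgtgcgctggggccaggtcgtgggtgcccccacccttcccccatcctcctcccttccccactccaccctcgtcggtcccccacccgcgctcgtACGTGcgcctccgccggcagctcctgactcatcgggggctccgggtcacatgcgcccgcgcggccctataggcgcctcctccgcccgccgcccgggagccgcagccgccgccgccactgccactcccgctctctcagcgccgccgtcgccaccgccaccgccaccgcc

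The PDK1 promoter (chr2:172555840-172556139, plus strand, 1 of 2 starts) held 2 matches to ACGTG, both on the other strand as CACGT and near its 3' end.

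PDK1: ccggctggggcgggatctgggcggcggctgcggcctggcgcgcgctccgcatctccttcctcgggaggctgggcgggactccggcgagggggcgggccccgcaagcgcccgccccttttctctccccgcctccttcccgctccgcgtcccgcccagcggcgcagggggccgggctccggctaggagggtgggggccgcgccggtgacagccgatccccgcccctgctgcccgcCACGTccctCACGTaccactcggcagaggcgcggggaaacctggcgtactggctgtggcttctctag

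EGLN3 (chr14:33951025-33951324, minus strand), which stood lower as well, held neither core in this window, which says only that these letters are not there.

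EGLN3: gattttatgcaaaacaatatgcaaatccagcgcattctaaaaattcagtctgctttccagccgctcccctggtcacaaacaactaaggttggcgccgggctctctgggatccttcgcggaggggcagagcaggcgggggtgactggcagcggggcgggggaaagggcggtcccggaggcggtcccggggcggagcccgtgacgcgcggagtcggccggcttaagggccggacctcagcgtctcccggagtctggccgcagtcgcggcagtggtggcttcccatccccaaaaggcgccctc

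PDK2 (chr17:50095101-50095400, plus strand, 1 of 3 starts) stood higher at day 14 and held 3 matches, GCGTG once and CACGTG, which reads ACGTG on both strands and so counts as 2 overlapping matches.

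PDK2: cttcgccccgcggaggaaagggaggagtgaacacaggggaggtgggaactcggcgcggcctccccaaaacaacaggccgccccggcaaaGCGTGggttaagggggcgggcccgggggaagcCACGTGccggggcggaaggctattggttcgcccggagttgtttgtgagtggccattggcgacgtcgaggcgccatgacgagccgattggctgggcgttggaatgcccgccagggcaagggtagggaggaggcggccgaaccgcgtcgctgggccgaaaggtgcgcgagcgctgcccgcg

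Among the promoters shown, those of genes on both sides of day 0 carried a core, and 1 of a gene that stood lower did not. Matches were not counted by direction over all members. VEGFA, SLC2A3, BNIP3L and NDRG1 are named only.

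Of the 15 glycolytic enzymes, 14 had a lower mean in DFNB than in hESC, with a median log2 difference of -0.53. By line the median was -1.01 (Shef3), -0.44 (H14) and -0.10 (Shef1). In FGF3+10 14 of 15 were again lower, with a median of -0.37, and here the lines were -0.97 in Shef3, -0.26 in H14 and 0.13 in Shef1. None passed the limma test. An unadjusted p below 0.05 was held by 2 enzymes in DFNB and 1 in FGF3+10, against 3125 and 2370 of all 19775 genes. Under quantile normalisation the enzyme counts were 12 of 15 lower in DFNB, with a median of -0.26, and 9 of 15 lower in FGF3+10, with a median of -0.15. The line medians moved most in Shef3: they became -0.35, -0.28 and -0.15 for DFNB in the order Shef3, H14 and Shef1, and -0.28, -0.03 and 0.06 for FGF3+10. The enzyme that stood higher in both comparisons as deposited was PKM.

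ENO2, the enolase typical of neurons, differed most among the enzymes. Its level at day 0 was 7.83 (Shef3), 8.43 (H14) and 6.52 (Shef1). In DFNB it was 6.37, 6.13 and 5.65 in the same order, below every day 0 array. With FGF3 and FGF10 it was 5.65, 7.03 and 6.41, so that H14 stood above the Shef1 array of day 0. The log2 difference was -1.54 ± 0.55 (SE) in DFNB (limma adjusted p = 0.244) and -1.23 ± 0.55 in FGF3+10 (limma adjusted p = 0.425).

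ALDOC, the brain form of aldolase, was next. Day 0 levels were 7.91 in Shef3, 8.09 in H14 and 6.88 in Shef1, against 6.65, 6.71 and 6.48 in DFNB, which did not overlap them. In FGF3+10 the levels were 5.83, 7.53 and 6.78, which did. The differences were -1.01 ± 0.49 in DFNB (limma adjusted p = 0.355) and -0.91 ± 0.49 in FGF3+10 (limma adjusted p = 0.498).

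The differences from day 0 of ENO2 and ALDOC were more negative than those of the ubiquitous forms ENO1 and ALDOA in each line. The difference of ENO2 minus the difference of ENO1 was -0.67 (Shef3), -2.08 (H14) and -0.95 (Shef1) for DFNB, and -1.29, -1.33 and -0.40 for FGF3+10. For ALDOC minus ALDOA it was -0.42, -1.45 and -0.38 for DFNB, and -1.11, -0.61 and -0.22 for FGF3+10. The mean over lines kept its sign after quantile normalisation, at -1.44 and -1.18 for the enolases and -0.91 and -0.83 for the aldolases. These pairs are described without a test.

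HK1, the widespread hexokinase that commits glucose to the cell, is added to the genes given in full because its values stood out once seen. It read 9.66 in Shef3, 9.86 in H14 and 9.15 in Shef1 at day 0, and 8.44, 8.91 and 8.57 in DFNB, with no overlap. In FGF3+10 it read 8.57, 9.25 and 8.52, and the H14 array reached the lowest day 0 array. The differences were -0.92 ± 0.34 in DFNB (limma adjusted p = 0.254) and -0.78 ± 0.34 in FGF3+10 (limma adjusted p = 0.406). HK2, the hexokinase form that HIF induces, parted by line: 8.72 at day 0, 7.03 in DFNB and 7.33 in FGF3+10 in Shef3, and 8.0, 6.96 and 7.48 in H14. In Shef1 the order was the opposite, with 7.64 at day 0, 8.05 in DFNB and 8.43 in FGF3+10.

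The remaining enzymes all differed less from day 0 than HK1 in DFNB, and all but PFKP did so in FGF3+10. PFKP, the platelet form of phosphofructokinase, read 10.31, 10.08 and 9.46 at day 0 in Shef3, H14 and Shef1, and 9.38, 9.30 and 8.66 in FGF3+10, with no overlap. Its differences were -0.58 ± 0.39 in DFNB and -0.84 ± 0.39 in FGF3+10. PFKL and PFKM, the liver and muscle forms, differed from day 0 by -0.14 and -0.12 in DFNB and by -0.06 and -0.04 in FGF3+10.

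TPI1, PGAM1, GPI and PGK1, which interconvert the sugar phosphates and their products or, in the case of PGK1, make ATP, had differences from -0.59 to -0.46 in DFNB and from -0.48 to -0.36 in FGF3+10. GAPDH, which oxidises glyceraldehyde phosphate and is often used as a reference gene, had a mean of 12.38 ± 0.52 (SD, n = 3) at day 0, 12.20 ± 0.41 in DFNB and 12.26 ± 0.24 in FGF3+10. ALDOA and ENO1 differed by -0.26 and -0.31 in DFNB and by -0.26 and -0.22 in FGF3+10. Of these 7, GPI, TPI1, PGK1 and PGAM1 were lower in all 3 lines in DFNB, and none was in FGF3+10.

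**Figure D2:**
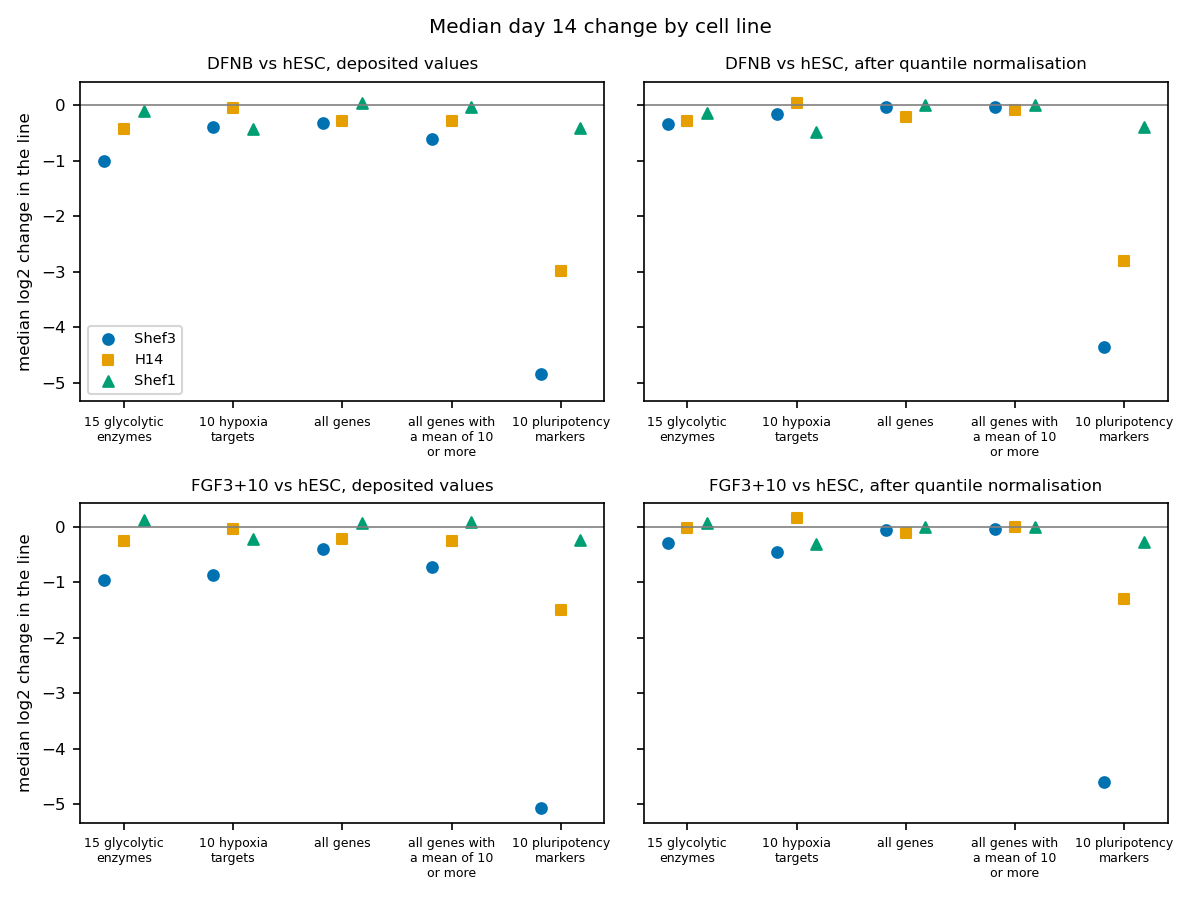
Median log2 difference from the day 0 array of the same line for the 15 glycolytic enzymes, the 10 measured hypoxia targets, all 19775 genes, the 776 genes with a mean level of at least 10 and 10 markers of pluripotent cells. Rows are the comparisons, the left column shows the deposited values and the right column quantile-normalised values. Shef3 gave the lowest enzyme median in each panel, and the bright genes follow the enzymes in the left column but lie near 0 in the right one.

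On the deposited scale the enzymes, the markers of pluripotent cells and all genes ordered the lines alike. For all genes the medians were -0.31 (Shef3), -0.29 (H14) and 0.04 (Shef1) in DFNB, and -0.39, -0.23 and 0.06 in FGF3+10. The 776 bright genes had -0.61, -0.28 and -0.02, and -0.73, -0.26 and 0.09. Quantile normalisation ended that order in all genes (-0.04, -0.21 and 0.01 in DFNB). The pluripotency list held 12 genes, of which 10 were measured. The median log2 difference of these markers in DFNB was -4.84 (Shef3), -2.98 (H14) and -0.40 (Shef1), and all 10 means were lower, none called. In FGF3+10 it was -5.07, -1.49 and -0.24, and again all 10 means were lower and none called. After quantile normalisation the order in DFNB was the same for the markers and the enzymes. The marker medians were then -4.36, -2.81 and -0.39, and the enzyme medians -0.35, -0.28 and -0.15. The summed level of the list lay between 14.0 and 14.7 on the day 0 arrays, between 10.4 and 13.6 in DFNB and between 9.90 and 13.9 in FGF3+10, lowest in Shef3 both times. The 10 markers had 3 with an unadjusted p below 0.05 (limma) in each comparison, against 3125 and 2370 of all 19775 genes. LIN28A, a defining gene of the pluripotent state, stayed at 11.56 in DFNB in Shef1 against 7.28 in Shef3. ZFP42, of the same list, went the other way between lines. With group in the model Shef1 differed by -8.40 ± 0.79 from H14 and -8.48 ± 0.79 from Shef3 (limma adjusted p = 0.0203 and 0.0217). With values below 4 set to 4 the differences were -3.66 and -3.74, and both calls were lost (limma adjusted p = 0.0662 and 0.0637). Of 9 fits that left out 1 array, 3 and 4 kept the call. The part of these markers in the enzyme levels was not tested.

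Markers of other cell types were counted in the same way. Of 12 markers of neural progenitors, 8 had a higher mean in each day 14 group, and SIX6, a factor of the eye field, was called in FGF3+10 (8.04 ± 1.07, limma adjusted p = 0.0357). With values below 4 set to 4 its difference was 2.51 and the call was lost (limma adjusted p = 0.0956). It was also lost in 7 of the 9 fits that left out 1 array (all but those without the H14 or the Shef1 array of DFNB, adjusted p up to 0.125) and in all 3 without a line (0.129 to 0.359). Of 10 neuronal markers 7 were higher in DFNB and 6 in FGF3+10. All 9 measured markers of endoderm or liver had a lower mean in both groups, none called. Of 10 endothelial markers 5 were higher in each group, of 9 muscle markers 3 and 2, and of 7 blood markers 3 and 2. The part of these cells in the members' levels was not tested.

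LDHA, the subunit that favours lactate production, read 11.27 in Shef3, 11.58 in H14 and 11.27 in Shef1 at day 0. It read 10.56, 11.42 and 10.40 in DFNB, and 9.97, 11.55 and 10.70 in FGF3+10, so the H14 arrays stayed within the day 0 range while the other lines were below it. The differences were -0.58 ± 0.45 (limma adjusted p = 0.561) and -0.63 ± 0.45 (limma adjusted p = 0.616). LDHB, the subunit typical of oxidative tissues, read 12.64, 12.62 and 11.88 at day 0, 11.95, 12.27 and 11.91 in DFNB, and 11.94, 12.39 and 12.20 in FGF3+10, so its groups overlapped. Its differences were -0.34 ± 0.32 (limma adjusted p = 0.629) and -0.20 ± 0.32 (limma adjusted p = 0.838), and the second turned to 0.06 under quantile normalisation.

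The glucose transporters parted. SLC2A1, which encodes GLUT1, the widespread and HIF-induced transporter, read 8.94 in Shef3, 7.95 in H14 and 7.92 in Shef1 at day 0. In DFNB it read 9.29, 9.20 and 8.83, and in FGF3+10 9.12, 9.05 and 8.38, higher than day 0 within each line. The Shef1 arrays at day 14 lay below the Shef3 array of day 0, so the groups overlapped. The differences were 0.84 ± 0.38 (limma adjusted p = 0.332) and 0.58 ± 0.38 (limma adjusted p = 0.580).

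SLC2A3, which encodes GLUT3, a high-affinity transporter of neurons and early embryos, went the other way. It read 12.21, 11.82 and 11.37 at day 0, 11.09, 11.26 and 11.20 in DFNB, and 10.54, 11.27 and 10.78 in FGF3+10. Every day 14 array was below every day 0 array. The differences were -0.62 ± 0.33 (limma adjusted p = 0.395) and -0.94 ± 0.33 (limma adjusted p = 0.303). The difference of SLC2A1 minus that of SLC2A3 was 1.47 (Shef3), 1.81 (H14) and 1.07 (Shef1) for DFNB, and 1.85, 1.65 and 1.05 for FGF3+10. The mean was 1.34 and 1.44 after quantile normalisation.

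**Figure D3:**
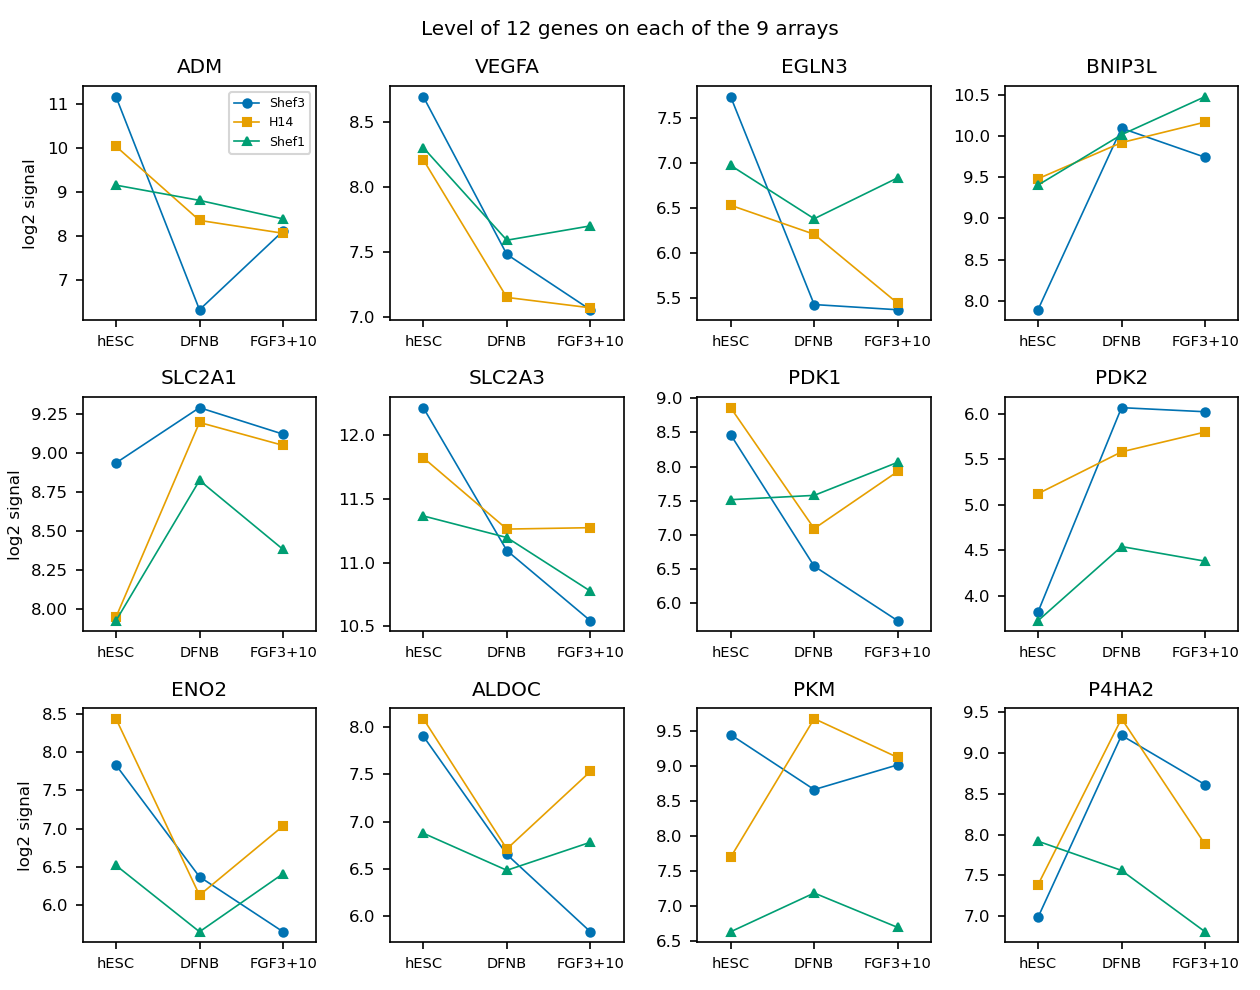
Level of 12 genes on each of the 9 arrays, in log2 units on an axis fitted to each gene. Lines join the 3 arrays of a cell line and carry no time course between the day 14 groups. ADM, VEGFA and SLC2A3 have every day 14 point below every day 0 point, BNIP3L has every one above, and PKM in Shef1 lies below the other lines in each group.

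Of the pyruvate dehydrogenase kinases, PDK1, the HIF-induced one, stood lower in Shef3 and H14. It read 8.47 and 8.86 there at day 0, 6.54 and 7.09 in DFNB, and 5.74 and 7.93 in FGF3+10. In Shef1 it read 7.51 at day 0, 7.58 in DFNB and 8.06 in FGF3+10, without a decrease. The mean differences were -1.21 ± 0.66 (limma adjusted p = 0.404) and -1.04 ± 0.66 (limma adjusted p = 0.571).

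PDK2, a kinase present in most tissues, was higher at day 14 in every line. It read 3.82 in Shef3, 5.12 in H14 and 3.73 in Shef1 at day 0, 6.07, 5.58 and 4.54 in DFNB, and 6.02, 5.80 and 4.38 in FGF3+10. The Shef1 arrays at day 14 stayed below the H14 array of day 0, so the groups overlapped. The day 0 levels of PDK2 in Shef3 and Shef1 lay below 4, in the low range where values scatter most. The differences were 1.17 ± 0.61 (limma adjusted p = 0.386) and 1.18 ± 0.61 (limma adjusted p = 0.479). PDK2 minus PDK1 was 4.18 (Shef3), 2.23 (H14) and 0.75 (Shef1) for DFNB, and 4.93, 1.61 and 0.11 for FGF3+10.

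PDK3 read between 7.36 and 8.28 at day 0, between 6.44 and 7.71 in DFNB and between 6.16 and 8.41 in FGF3+10. PDK4, the kinase induced by fasting and fatty acids, parted by line. It read 1.71 in Shef3, 5.27 in H14 and 5.14 in Shef1 at day 0, 3.88, 4.17 and 0.55 in DFNB, and 3.31, 4.82 and 1.70 in FGF3+10. Shef3 was thus higher at day 14, H14 lower and Shef1 lowest of all. Several of these levels lie in the low range, where values had no lower bound and scatter most.

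Among the 10 measured hypoxia targets, 5 had a lower and 5 a higher mean in DFNB than in hESC, with a median of -0.25, and in FGF3+10 7 were lower and 3 higher, with a median of -0.37. They did not move as a block. ADM, the vasodilator peptide adrenomedullin, had the largest difference of all members. It read 11.18 in Shef3, 10.04 in H14 and 9.16 in Shef1 at day 0, then 6.31, 8.35 and 8.81 in DFNB and 8.11, 8.06 and 8.39 in FGF3+10. No day 14 array reached the lowest day 0 array. The differences were -2.30 ± 0.71 (limma adjusted p = 0.187) and -1.94 ± 0.71 (limma adjusted p = 0.325), from -4.87 in Shef3 to -0.35 in Shef1 for DFNB.

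VEGFA and EGLN3 were singled out after their values were seen. VEGFA, the growth factor of blood vessels, read 8.70, 8.21 and 8.31 at day 0 in Shef3, H14 and Shef1, 7.49, 7.15 and 7.59 in DFNB, and 7.06, 7.07 and 7.70 in FGF3+10. It had no overlap with day 0 in either group, and the lines lay close to each other. The differences were -0.99 ± 0.31 (limma adjusted p = 0.194) and -1.13 ± 0.31 (limma adjusted p = 0.203). EGLN3, an oxygen-sensing prolyl hydroxylase that marks HIF for degradation and is itself a HIF target, read 7.74, 6.53 and 6.97 at day 0. It read 5.42, 6.21 and 6.38 in DFNB, below every day 0 array, and 5.36, 5.44 and 6.83 in FGF3+10, with differences of -1.08 ± 0.51 (limma adjusted p = 0.347) and -1.20 ± 0.51 (limma adjusted p = 0.401).

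BNIP3L, a receptor for the removal of mitochondria, was the gene that stood above day 0 without overlap in both day 14 groups. It read 7.89 in Shef3, 9.48 in H14 and 9.40 in Shef1 at day 0, 10.10, 9.92 and 10.02 in DFNB, and 9.74, 10.17 and 10.48 in FGF3+10. The differences were 1.09 ± 0.45 (limma adjusted p = 0.300) and 1.21 ± 0.45 (limma adjusted p = 0.336). Its relative BNIP3, also a HIF target, was lower in all lines in DFNB (-0.63 ± 0.53), while in FGF3+10 Shef1 stood above day 0. BNIP3L minus BNIP3 was 2.74 (Shef3), 1.24 (H14) and 1.17 (Shef1) for DFNB, and 3.0, 0.88 and 0.72 for FGF3+10.

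Without overlap in both day 14 groups there were thus 3 lower members, SLC2A3, VEGFA and ADM, against 8.02% of all genes, and 1 higher member, BNIP3L, against 4.23% of all genes. These shares are near those of all genes. For DFNB alone, 10 members (30.3%) lay below day 0 without overlap against 14.3% of all genes, and for FGF3+10 alone 4 (12.1%) against 11.3%.

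**Figure D4:**
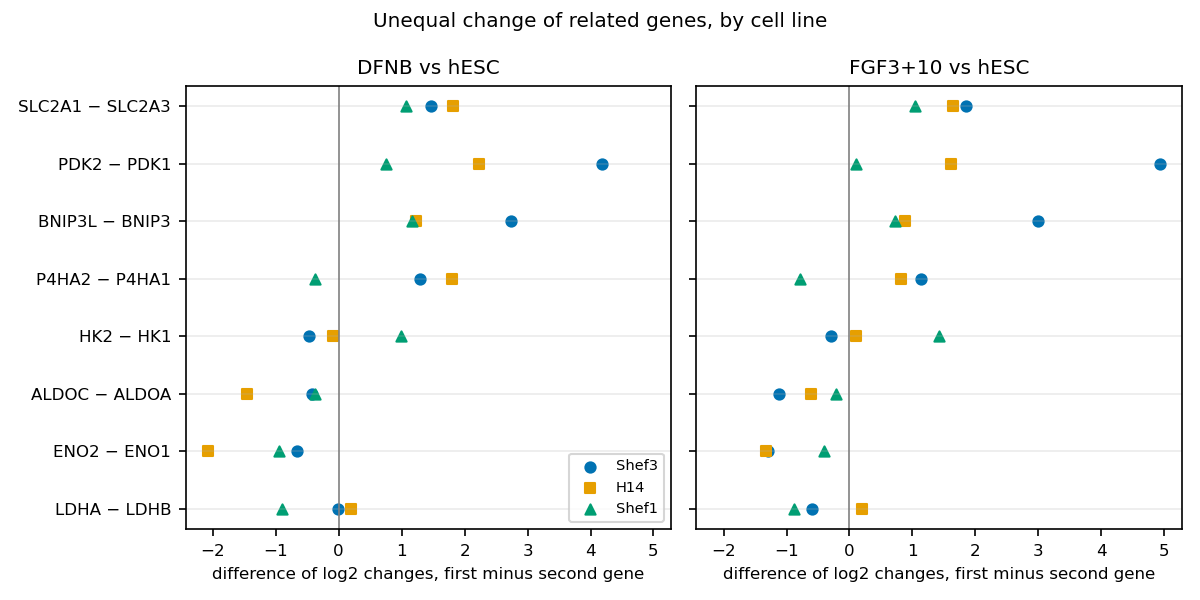
Difference between related genes in their log2 difference from day 0, first gene minus second, for 8 pairs in each line. Left, DFNB; right, FGF3+10. SLC2A1 against SLC2A3, PDK2 against PDK1 and BNIP3L against BNIP3 lie above 0 in all 3 lines, ALDOC against ALDOA and ENO2 against ENO1 lie below it, and the other pairs differ in sign between lines.

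P4HA1 and P4HA2 encode the catalytic subunits of the prolyl hydroxylase that matures collagen. P4HA2, singled out after its values were seen, read 6.99 in Shef3, 7.39 in H14 and 7.92 in Shef1 at day 0, 9.21, 9.42 and 7.56 in DFNB, and 8.61, 7.88 and 6.81 in FGF3+10. Shef3 and H14 were higher at day 14 and Shef1 was lower, and the differences were 1.30 ± 0.62 (limma adjusted p = 0.347) and 0.34 ± 0.62 (limma adjusted p = 0.867). P4HA1 had a mean of 9.01 ± 0.24 (SD, n = 3) at day 0, 9.40 ± 0.39 in DFNB and 8.95 ± 0.32 in FGF3+10. Markers of fibroblasts or mesenchyme, cells that make collagen, are given beside them. Of 12 genes, all measured, 11 had a higher mean in DFNB than at day 0, none called, and the summed level lay at 15.2 in Shef3 and H14 against 14.0 in Shef1, from 14.1 to 14.5 at day 0. In FGF3+10 against hESC, 8 of the 12 markers had a lower mean as deposited, with a median of -0.10. After quantile normalisation 5 of the 12 did, with a median of 0.10. The summed level in FGF3+10 stood at 14.82 (Shef3), 14.29 (H14) and 13.31 (Shef1). The day 0 arrays had 14.49, 14.25 and 14.13 in the same order. P4HA2 differed from day 0 by 2.22 (Shef3), 2.03 (H14) and -0.36 (Shef1) in DFNB, and by 1.62, 0.50 and -1.11 in FGF3+10. In DFNB the summed level was 15.17, 15.22 and 14.00 in the same order, highest in H14. The median marker difference there was 1.53, 1.09 and -0.10, highest in Shef3. The part of these markers in the P4HA2 levels was not tested.

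NDRG1, a stress-induced gene of differentiation, read 7.52, 6.31 and 6.50 at day 0 in Shef3, H14 and Shef1, 7.64, 7.82 and 5.99 in DFNB, and 6.92, 6.69 and 5.48 in FGF3+10. Its differences, 0.38 ± 0.61 (limma adjusted p = 0.797) and -0.41 ± 0.61 (limma adjusted p = 0.831), were smaller than their errors. DDIT4, an inhibitor of mTORC1 signalling, was lower in all 3 lines in DFNB (-0.91 ± 0.48). In FGF3+10 it stood at 7.22 in Shef3 against 9.35 at day 0, while H14 stood at 8.87 against 8.77 and Shef1 at 8.97 against 9.07. ANKRD37 read between 3.71 and 5.06 on all arrays, with group means of 4.28, 4.40 and 4.69.

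For 16 of the members another probe set with a mean of at least 4 could be compared. None of them had the opposite sign in DFNB against hESC, and 1, for PDK3, had it in FGF3+10 against hESC.

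The day 14 groups answer what FGF3 and FGF10 add to the medium. Here no gene was called (0% of 19775, with 300 at an unadjusted p below 0.05), and no member had an unadjusted p below 0.05. In FGF3+10, 11 members had a lower and 22 a higher mean than in DFNB, with a median difference of 0.09 against 0.00 for all genes. The lines went opposite ways as deposited. With the FGFs 28 members were lower in Shef3 (median -0.28), 12 in H14 (median 0.14) and 10 in Shef1 (median 0.29). All genes had smaller medians of the same signs, at -0.10, 0.08 and 0.03 in that order. The 776 bright genes had -0.11, 0.02 and 0.09. After quantile normalisation 22, 10 and 10 members were lower, with medians of -0.18, 0.19 and 0.20. The medians of all genes were then -0.02, 0.11 and 0.002. As deposited, the count of members with a lower mean ran from 7 without the H14 array of DFNB to 23 without the H14 array of FGF3+10. SLC2A1, NDRG1, P4HA1 and P4HA2 were lower with the FGFs in all 3 lines, 4 of 33 against 12.5% of all genes, and HK2 was higher in all 3, against 9.4% of all genes. After quantile normalisation 4 were lower and 5 higher in all 3 lines. P4HA2 had the lowest unadjusted p, with a difference of -0.96 ± 0.62, and an interval from -2.37 to 0.44 (95%) that holds 0. The mesenchyme markers were lower with the FGFs as well, all 12 in mean and 10 in every line, none called.

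Set against each other with group in the model, the lines differed in 0.46% of all genes, and in no member. PKM, pyruvate kinase of most tissues, came nearest (limma moderated F test, adjusted p = 0.124). It read 9.45, 8.67 and 9.02 in Shef3 at day 0, in DFNB and in FGF3+10, 7.69, 9.68 and 9.13 in H14, and 6.63, 7.18 and 6.69 in Shef1. Shef1 was lowest in each group, by 2.22 ± 0.51 (SE) under Shef3 (limma adjusted p = 0.0847) and 2.00 ± 0.51 under H14 (limma adjusted p = 0.107). A second PKM probe set, dim at a mean of 3.80, was lowest in Shef1 at day 0 and in FGF3+10 but not in DFNB. Across groups PKM differed from day 0 by 0.59 ± 0.96 in DFNB and 0.35 ± 0.96 in FGF3+10, with H14 higher and Shef3 lower, and the sign of both means turned when single arrays were left out.

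More broadly, Shef1 had the lowest level of the 3 lines for 14 of 15 enzymes at day 0, 10 of 15 in DFNB and 7 of 15 in FGF3+10, where Shef3 was lowest for the other 8. After quantile normalisation the counts were 12, 10 and 7. Among all 19775 genes Shef1 was lowest for 10073 at day 0 as deposited and for 6539 after quantile normalisation. Against H14, 13 of 15 enzymes were lower in Shef1 in all 3 groups, with a median difference of -0.68 against -0.12 for all genes, and 12 of 15 were after quantile normalisation, with a median of -0.50 against 0.07. Against Shef3 the picture differed: 6 of 15 enzymes were lower in Shef1 in all 3 groups, with a median of -0.14, or -0.06 after quantile normalisation, and the median in FGF3+10 was 0.39. PFKL and GPI followed PKM against H14, at -1.03 ± 0.27 (limma adjusted p = 0.112) and -1.17 ± 0.32 (limma adjusted p = 0.123), and PFKL was called with values below 4 set to 4 (limma adjusted p = 0.0465). That setting called 685 of 13406 genes in this contrast. The 10 hypoxia targets had a median of -0.02 between Shef1 and H14, but the longer list of other hypoxia targets had 25 of 29 lower in Shef1, with a median of -0.53, or -0.34 after quantile normalisation. PDK2 was lower in Shef1 than in H14 by 1.29 ± 0.41 (limma adjusted p = 0.157), and NDRG1 lower than in Shef3 by 1.37 ± 0.41 (limma adjusted p = 0.127). LDHA had its highest mean in H14 (11.52), and SLC2A1 in Shef3 (9.12).

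Whether the lines differed in their day 14 change was tested from both day 14 arrays of a line against its day 0 array. No gene was called (0%, with 3841 genes at an unadjusted p below 0.05), and the lowest adjusted p of a member was 0.203, for PDK4. The spread in that test comes only from day 14 arrays that differ in medium.

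The surrounding pathways were read from 7 lists, and none of their 108 measured genes was called between groups. In limma, 20 of them had an unadjusted p below 0.05 in DFNB against hESC, 19 in FGF3+10 against hESC and 1 between the day 14 groups. Among all 19775 genes the counts were 3125, 2370 and 300 in that order. Of 25 measured other enzymes and transporters of glycolysis and gluconeogenesis, 17 had a lower mean in DFNB and 18 in FGF3+10. PCK2, the mitochondrial enzyme that makes phosphoenolpyruvate, had the largest t, at 9.35, 9.29 and 8.86 on the day 0 arrays of Shef3, H14 and Shef1, 7.62, 7.65 and 7.08 in DFNB, and 7.02, 7.68 and 7.50 in FGF3+10. Its differences were -1.72 ± 0.32 (limma adjusted p = 0.0694) and -1.76 ± 0.32 (limma adjusted p = 0.0851), so every day 14 array was below day 0. PGK2, the testis form of PGK, was second, at -1.15 ± 0.34 and -0.83 ± 0.34.

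The list of HIF factors and oxygen sensors had 12 genes, 5 with a lower mean in DFNB and 6 in FGF3+10. HIF1A itself, the oxygen-regulated subunit, had means of 11.64, 11.47 and 11.40 at day 0, in DFNB and in FGF3+10. Its regulation is known to act mostly on the protein, which was not measured here. ARNT2, a partner subunit typical of neural tissue, was higher by 1.27 ± 0.36 (limma adjusted p = 0.164) and 1.16 ± 0.36 (limma adjusted p = 0.246). EGLN1, the main oxygen sensor, was higher by 0.94 ± 0.30 (limma adjusted p = 0.212) and 0.71 ± 0.30 (limma adjusted p = 0.401).

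Of 29 other hypoxia targets measured, 14 had a lower mean in both comparisons, with medians of 0.14 and 0.05. STC1, a calcium-regulating hormone, was lower by 1.57 ± 0.38 in DFNB and 1.74 ± 0.38 in FGF3+10 (limma adjusted p = 0.122 and 0.117), and AK4, a mitochondrial adenylate kinase, by 1.85 ± 0.52 and 2.18 ± 0.52 (limma adjusted p = 0.165 and 0.147). For both, all day 14 arrays were below all day 0 arrays.

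Further lists are set against the 60.5% and 62.4% of all genes with a lower mean in DFNB and FGF3+10. In the pyruvate dehydrogenase complex and its regulators 8 of 9 genes had a lower mean in each comparison, with medians of -0.48 and -0.45, and PDHA1 and DLAT, its first and second enzymes, differed by -0.80 ± 0.34 and -0.78 ± 0.41 in DFNB. Of 13 citrate cycle genes 11 and 12 were lower, with medians of -0.38 and -0.38, led by SDHD (-1.11 ± 0.42) and MDH2 (-0.71 ± 0.30) in DFNB and by IDH3A (-0.68 ± 0.29) and SDHD in FGF3+10. Of 7 genes of the pentose phosphate pathway 6 were lower each time, with TKT, transketolase, at -0.93 ± 0.32 and -0.82 ± 0.32. After quantile normalisation the medians for DFNB were -0.26, -0.17 and -0.13 in that order, and 7 of 9, 9 of 13 and 4 of 7 genes were lower. In the integrated stress response, 10 of 13 were lower in DFNB and 12 in FGF3+10, with CHAC1 and ASNS at -2.01 ± 0.49 and -1.22 ± 0.35 in DFNB.

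Between lines 3 genes of these lists were called, all low in Shef1. OGDH, the citrate cycle's oxoglutarate dehydrogenase, read 6.67, 6.33 and 6.73 in Shef3, 6.05, 6.75 and 6.34 in H14, and 3.68, 3.91 and 4.31 in Shef1. It was lower in Shef1 by 2.42 ± 0.30 than in H14, a contrast that called 1.05% of all genes, and by 2.61 ± 0.30 than in Shef3, a contrast that called 1.57% of all genes (limma adjusted p = 0.0363 and 0.0289). IGFBP3, a secreted binder of insulin-like growth factors and a HIF target, was lower by 2.00 ± 0.31 and 2.15 ± 0.31 (limma adjusted p = 0.0483 and 0.0426). HK3, the myeloid hexokinase, was called between Shef1 and Shef3 (limma adjusted p = 0.0426), but its levels ran from -8.07 to -3.32, far below the median of the arrays. After quantile normalisation OGDH kept the call against Shef3 (limma adjusted p = 0.0347) and the other calls of these 3 genes were lost, at adjusted p from 0.0515 to 0.120. With the mean of its probe sets OGDH differed by -1.28 and -0.92 and lost both calls (limma adjusted p = 0.0619 and 0.101). Without the group term IGFBP3 lost both as well (limma adjusted p = 0.149 and 0.124). Leaving out any 1 of the 9 arrays ended every one of these calls, at adjusted p from 0.0515 to 0.206, except that of OGDH against H14 without the Shef3 array of day 0 (limma adjusted p = 0.0471).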

How the data were processed

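The table used holds the authors' deposited log values, taken here as log2, for 54675 probe sets on 9 arrays. Every array's deposited values had a median of 3.20, and they ranged from -14.4 to 13.3. The software, background correction, probe summary and log base were not given in the sources used here. Per the labels' protocols, each array took 200 ng of total RNA, amplified by the 3' IVT method and labelled with biotin. Precision is limited by how many arrays there are, since array values carry no depth.

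In the platform annotation 41097 probe sets have 1 gene symbol and 1801 have several. Symbols were updated through Entrez identifiers (41043 matched). Control probe sets (62) were left out. For each of 19775 genes 1 probe set was kept, that of the highest mean over all arrays.

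The 3 groups of 3 arrays were compared in limma 3.58.1 (R 4.3.3) by lmFit and eBayes with 1 mean per group and a shared spread, and p-values were adjusted over all genes. Lines were compared in a model of group and line, and the line by day interaction was tested with day 0 against both day 14 arrays. The fit was tested on simulated data. Pairing comes from the cell line that the labels name. Deviations from the group means correlated within a line at 0.11, 0.09 and 0.34 (DFNB and hESC, in the order Shef3, H14, Shef1), 0.18, 0.26 and 0.28 (FGF3+10 and hESC) and 0.40, 0.33 and 0.71 (FGF3+10 and DFNB). The highest correlations with another line were 0.08, 0.17 and -0.13, then -0.07, 0.06 and -0.07, and 0.22, 0.04 and -0.42. For DFNB and hESC, H14 thus correlated more with another line than with itself. Deviations within a group sum to 0, which lowers correlations between lines. The cell line as a block, quantile normalisation, the mean of a gene's probe sets, control probe sets, a minimum mean of 4, a floor of 4, a variance trend and leaving out arrays or lines were alternatives.

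Named in full were, in each role, the 2 members with the largest absolute mean day 14 change and the 1 with the largest F between lines. From each pathway list came its called genes or the 2 with the largest t, and 8 marker lists were counted. HK1, HK2, PFKP, PDK4, VEGFA, EGLN3 and P4HA2 were added after their values were seen. The members and lists were chosen with earlier results of these data known. Nothing repeats a line within a group. The p-values of the group comparisons therefore measure the spread between lines within a group. Those between lines measure what group and line leave over, and those of the day 14 change the spread between media within a line.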

Additional observations from a re-analysis of the deposited data

Results flagged for a closer look

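For 12 genes both day 14 arrays of 1 line lay above that line's day 0 array and both of another line lay below it. The difference between those lines in the mean day 14 change is given for each. The p beside it is that of the interaction of line and day over all 3 lines (limma moderated F test, adjusted over all genes). That test does not single out the pair of lines named, and genes and pairs were picked from the same values. None of the genes passed. PDK4 had the largest difference, 5.90 higher in Shef3 than in Shef1 (adjusted p = 0.203). PDK1 differed by 2.63 and HK2 by 2.13, both higher in Shef1 than in Shef3 (adjusted p = 0.261 and 0.223). P4HA2 differed by 2.65, higher in Shef3 than in Shef1 (adjusted p = 0.351). PKM differed by 2.32, higher in H14 than in Shef3 (adjusted p = 0.227). NDRG1 differed by 1.72, higher in H14 than in Shef1 (adjusted p = 0.447). Higher in Shef1 than in Shef3 were also ENO1 by 1.03, LDHB by 0.869 and GAPDH by 0.760 (adjusted p = 0.282, 0.353 and 0.388). PFKM was higher in Shef3 than in H14 by 1.05 (adjusted p = 0.354), and ALDOA and ANKRD37 were higher in H14 than in Shef3 by 0.957 and 0.874 (adjusted p = 0.253 and 0.723).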

How the results depend on the processing

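No member was called between groups under any alternative run, the replicate block (cell line) included. Of 768 single-gene values under alternatives, 751 kept their direction and their side of the threshold, those of 33 of 42 results throughout. None of the 42 results was called in the main fit. The block, the variance trend, the minimum mean and leaving out an array of the third group cannot change a group difference. Allowing control probe sets left the values of these genes as they were. The 751 thus include values that could not turn, and say little about robustness. Counts of all genes called moved more. In DFNB against hESC the 40 genes became 189 with the replicate block, 122 with a minimum mean of 4, 183 with a floor of 4 and 153 with a variance trend, and from 0 (without Shef3 or without H14) to 72 with arrays or a line left out. In FGF3+10 against hESC the 35 became 115, 66, 123 and 76 in that order, and from 0 (without Shef3 or without H14) to 32. Members lower in FGF3+10 than in DFNB ranged from 7 to 23. Between lines the 91 became 188 without the group term, 58 with quantile normalisation, 217 with the mean of probe sets, 491 with the minimum mean, 468 with the floor and 598 with the trend, where 1 member was called (PKM, adjusted p = 0.0494), and from 16 to 55 with an array left out. The minimum mean left 11502 genes to test and the floor 13406. The day 14 change between lines called 1744 of the 13406 genes with the floor, of which 2 were members (ALDOA and PDK2, adjusted p = 0.0417 and 0.0310). With the trend it called 8 of 19775. PKM between Shef1 and Shef3 passed with the minimum mean and the trend (adjusted p = 0.0444 and 0.0338), and between Shef1 and H14 with the trend (0.0476). In that order these fits called 681 of 11502, 884 of 19775 and 703 of 19775 genes. PFKL between Shef1 and H14 passed with the floor (0.0465), where 685 of 13406 genes were called. LDHB in FGF3+10 turned to 0.064 under quantile normalisation.

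With an array or line left out the sign turned for PKM (-0.12 to 1.35 in DFNB, -0.30 to 1.15 in FGF3+10), LDHB in FGF3+10 (-0.47 to 0.043), NDRG1 (-0.19 to 0.95 in DFNB, -0.81 to 0.031 in FGF3+10), P4HA2 in FGF3+10 (-0.31 to 1.06) and LDHA between Shef1 and Shef3 (-0.11 to 0.39). The cause was not tested. Low values have no lower bound, so a floor of 4 removes much of their spread, and detection calls were not used here.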
